A study of Mus musculus with 14 samples.

Results

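Tubulin isotypes are the separate genes that encode the alpha and beta subunits of microtubules. The transcripts of 10 of them were followed here among the 55421 mouse genes of the count table: the 3 alpha genes Tuba1a, Tuba1b and Tuba4a, and the 7 beta genes Tubb2a, Tubb2b, Tubb3, Tubb4a, Tubb4b, Tubb5 and Tubb6. They were chosen by symbol, with earlier results of these data known. The libraries came from the brainstem of 7 mice on a C57Bl/6 background that carried Th-Cre, which drives Cre recombinase from the tyrosine hydroxylase promoter, and Slc6a2-eGFP/Rpl10a, which puts a tagged ribosomal protein L10a under noradrenaline transporter control. At 2 to 3 months of age, 4 of them (animals B, C, L and M) were infused in the locus coeruleus, the noradrenergic nucleus of the brainstem, with P364S mutant human tau, and 3 (animals H, I and K) with the fluorescent protein EYFP. Both transgenes were shared by tau and EYFP animals. Translating ribosome affinity purification gave from every animal an immunoprecipitate of tagged ribosomes with their RNA (IP) and the homogenate before it (pre-IP), so the groups were tau IP and tau pre-IP (n = 4 each) and EYFP IP and EYFP pre-IP (n = 3 each). Tau is a neuronal protein that binds along microtubules.

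Microtubules grow by the addition of dimers of 1 alpha and 1 beta subunit. The subunits are folded in the chaperonin CCT, to which prefoldin delivers them, and are joined into dimers by the tubulin cofactors. Isotypes have nearly the same globular body and differ most in an acidic C-terminal tail that projects from the microtubule and carries polyglutamylation and, on alpha subunits, removal of the last tyrosine. Neurons use mainly Tuba1a, Tubb2a, Tubb2b, Tubb3 and Tubb4a. Tubb3 is the classical neuronal beta isotype, whereas Tubb4a is also abundant in oligodendrocytes, the myelinating glia. Cells also set tubulin levels by degrading tubulin mRNA on the ribosome: the factor TTC5 recognises the first residues of the growing chain.

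Those first codons are shown because they encode the residues that TTC5 recognises. The coding starts below are the first 24 coding bases of the GENCODE M21 transcript of each gene (GRCm38), 5′ to 3′ on the gene's strand, with the first 4 codons in capitals.
Tuba1a start: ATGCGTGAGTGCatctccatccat
Tuba1b start: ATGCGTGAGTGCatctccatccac
Tuba4a start: ATGCGCGAGTGCatttcagtccat
Tubb2a start: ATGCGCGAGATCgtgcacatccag
Tubb2b start: ATGCGAGAGATCgtgcacattcag
Tubb3 start: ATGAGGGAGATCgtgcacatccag
Tubb4a start: ATGCGGGAAATCgtgcacctgcaa
Tubb4b start: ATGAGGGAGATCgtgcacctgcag
Tubb5 start: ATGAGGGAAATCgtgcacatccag
The first 4 codons encoded methionine, arginine, glutamate and cysteine in 3 of 3 alpha genes, and methionine, arginine, glutamate and isoleucine in 7 of 7 beta genes, Tubb6 included.

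The ends of the coding sequences are shown because the tails distinguish the isotypes, and because stretches that do not differ between genes limit how reads can be assigned. Each line gives, for a gene of the list, the last 72 coding bases with the stop codon, and codons for glutamate and aspartate are in capitals.
Tuba4a end: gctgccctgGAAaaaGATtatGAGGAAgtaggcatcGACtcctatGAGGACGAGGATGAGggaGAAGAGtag
Tubb2a end: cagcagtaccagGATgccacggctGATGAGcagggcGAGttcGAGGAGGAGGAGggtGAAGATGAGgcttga
Tubb2b end: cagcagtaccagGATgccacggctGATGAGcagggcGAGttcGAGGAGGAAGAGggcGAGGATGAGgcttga
Tubb3 end: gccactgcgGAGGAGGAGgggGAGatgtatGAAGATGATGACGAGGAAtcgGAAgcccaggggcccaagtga
Tubb4a end: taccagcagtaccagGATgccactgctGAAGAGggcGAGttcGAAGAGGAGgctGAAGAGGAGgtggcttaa
Tubb4b end: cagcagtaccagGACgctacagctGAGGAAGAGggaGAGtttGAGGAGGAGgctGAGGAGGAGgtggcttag
Tubb5 end: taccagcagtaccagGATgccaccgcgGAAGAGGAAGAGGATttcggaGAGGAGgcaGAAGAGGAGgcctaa
From 10 to 12 of the 23 codons before the stop were acidic in each gene shown. The last sense codon of Tuba4a is glutamate. The end of Tubb3 had 42.2 to 47.1% base identity with those of the other beta genes, whereas the whole coding sequences of the beta genes had 80.2 to 96.5%. The printed ends of Tubb2a and Tubb2b differ at 3 bases, with 0 residues changed.

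All coordinates are those of GRCm38. Tuba1a (chromosome 15, 98949837 to 98953703, minus strand) and Tuba1b (chromosome 15, 98931425 to 98934565, minus) are neighbours, as are Tubb2a (chromosome 13, 34074274 to 34078007, minus) and Tubb2b (chromosome 13, 34126748 to 34130466, minus). Tuba4a is at 75214228 to 75219865 of chromosome 1 (minus strand), Tubb3 at 123411424 to 123422015 of chromosome 8 (plus) and Tubb4b at 25222160 to 25224702 of chromosome 2 (minus). Tubb4a (57080066 to 57087782, minus) and Tubb5 (35833921 to 35838306, minus) are on chromosome 17, and Tubb6 (67390717 to 67402749, plus) is on chromosome 18. Counts refer to the exons of each gene, untranslated regions included.

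Similarity between these genes bears on their counts. Of the 50-base stretches of its transcript, Tuba1a shared 75.5% and Tuba1b 83.1% with transcripts of other genes, mostly with Tuba1c. Tubb2a shared 49.6%, mostly with Tubb2b, and Tubb2b shared 39.3%, mostly with Tubb2a. Tubb4b shared 55.5%, mostly with the pseudogene Tubb4b-ps1. Tubb3 and Tubb6 shared 0%, and Tubb4a and Tubb5 under 0.2%. Exons of Tuba4a overlapped those of Stk16, on the opposite strand, over 1379 bases or 37.3% of their length, and both Tuba1a and Tuba1b overlapped the annotated gene Gm49450 on their own strand, over 473 and 426 bases. The counting rule for reads with several matches and the use of strand are not given in the sources used here, so the values of Tuba1a, Tuba1b, Tuba4a, Tubb2a, Tubb2b and Tubb4b are uncertain in level, and those of Tubb3, Tubb4a, Tubb5 and Tubb6 are the least exposed to it.

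Total counts were 41843489 to 65664551 per library, and the members had from 260 (Tubb6) to 172908 counts (Tubb4a) in a library, all above the floor of 3 counts. RNA integrity scores were 7.7 to 9, apart from 4.2 for the IP of animal I (EYFP). Human tau construct counts were 3527 to 47177 in tau libraries and 2 to 408 in EYFP libraries, the highest of these in animal K. The noradrenergic markers (12 genes, such as Dbh, Th and Slc6a2) were all detected, and the log2 ratio of their summed level in IP to that in pre-IP was 1.28 to 4.05 in tau animals and 0.42 to 0.49 in EYFP animals. Cyb561 made up 16.6 to 46.0% of that sum in a library, and its mean in EYFP animals was 185 CPM in both fractions. In the same animals Dbh had means of 15.7 CPM in pre-IP and 40.6 CPM in IP, and Slc6a2 9.01 and 24.1 CPM. The ratio of the sum thus understates the enrichment of these 2 genes in EYFP animals. IP libraries of the treatments therefore differed in their enrichment of noradrenergic marker transcripts, and this difference is present in each comparison of IP libraries below. Whether it came from capture of tagged ribosomes or from marker levels within the tagged cells was not tested. In bulk RNA, fewer cells of a type and less RNA per cell cannot be told apart.

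By these counts, whose rule for reads shared between genes is not given, Tubb4a was the most abundant isotype. Its level, in CPM (counts scaled to a library total of 1000000) per kilobase of exon, was 1035 ± 157 in the 7 pre-IP libraries (SD), followed by Tuba1a at 655 ± 75.3, Tuba1b at 533 ± 30.2, Tubb2a at 471 ± 70.9 and Tubb3 at 335 ± 46.9. Tubb4b (224 ± 39.0), Tuba4a (202 ± 22.0), Tubb5 (123 ± 10.3), Tubb2b (33.4 ± 2.56) and Tubb6 (3.28 ± 0.57) came next. Tubb4a stood above Tuba1a with no overlap of their ranges, and so did Tuba4a above Tubb5, Tubb5 above Tubb2b and Tubb2b above Tubb6. The ranges of the other neighbours in this order overlapped between libraries, although Tuba1a was above Tuba1b in 7 of 7 pre-IP libraries and Tubb2a above Tubb3 in 7 of 7. In IP the order was the same except that Tubb2a (619 ± 91.6) had a higher mean than Tuba1b (547 ± 73.6), in 6 of 7 libraries. Tubb4a in IP (945 ± 182) overlapped Tuba1a (776 ± 81.8) and was above it in 6 of 7. Together the 10 genes took 0.72 to 0.87% of all counts as group means.

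**Figure D1:**
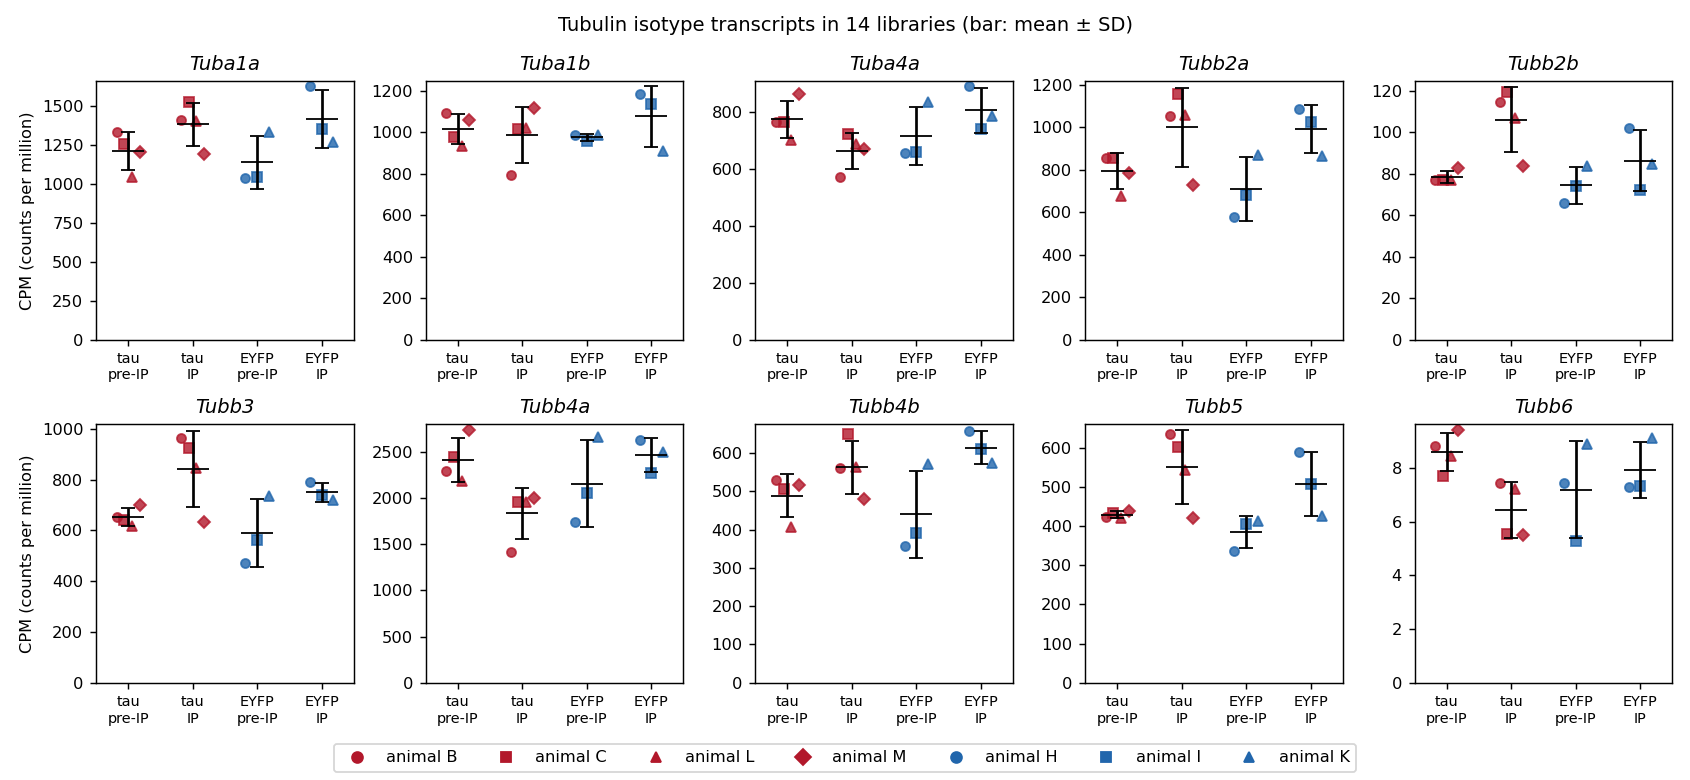
Level of each isotype (y axis, CPM from 0) in the 14 libraries, by group on the x axis; points are animals and bars are the mean ± SD of 3 or 4 libraries. Tubb4a in tau IP (1418 to 2003 CPM) sits below EYFP IP (2271 to 2633 CPM). Tuba4a is also lower in tau IP (571 to 720 CPM) than in EYFP IP (737.5 to 891 CPM), and the other isotypes overlap between these groups. Between IP and pre-IP of a treatment, some isotypes are apart on library totals, such as Tubb2b in tau animals (76.8 to 82.5 CPM in pre-IP and 83.7 to 119 CPM in IP). On CPM scaled by TMM (trimmed mean of M-values) these Tubb2b groups overlapped, with M at 85.5 in pre-IP and 85.1 in IP. The share of all genes apart within a treatment was not computed.

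The first comparison asked which isotype transcripts were enriched with the tagged ribosomes. RNA concentrations were 11.4 to 29.9 ng per microlitre in pre-IP and 0.1 to 2.8 in IP samples, so fraction and RNA concentration cannot be told apart. Over all 14 libraries, 6 of the 10 isotypes were higher in IP than in pre-IP: 5 beta genes, Tubb2a, Tubb2b, Tubb3, Tubb4b and Tubb5, and the alpha gene Tuba1a. Their log2 fold changes were between 0.29 and 0.44. None of the 10 was lower, while Tuba1b, Tuba4a, Tubb4a and Tubb6 lay between -0.13 and 0.08. Of the 18792 genes tested, 16.3% were called higher and 14.7% lower at an adjusted p under 0.05 (edgeR's quasi-likelihood test, Benjamini-Hochberg over all genes). The median log2 fold change was 0.33 over the 10 isotypes and -0.0036 over all genes tested. For 9.46% of all genes the IP and pre-IP libraries did not overlap on library totals, against 0 of the 10 isotypes, and the values with TMM scaling (trimmed mean of M-values) were 9.68% and 0.

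Tubb5, a beta isotype of most tissues, is among those whose reads are least shared with other genes. In animals B, C, L and M it had 425, 433, 420 and 439 CPM in pre-IP and 636, 602, 545 and 422 CPM in IP. In the EYFP animals H, I and K it had 338, 405 and 414.5 CPM in pre-IP and 590, 508 and 427 CPM in IP. It exceeded pre-IP in the IP of 6 of 7 animals, with animal M as the exception and animal K almost level. The log2 fold change was 0.43 (SE 0.12, edgeR adjusted p 0.0128).

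Tubb3, the neuronal beta isotype, had 651, 641, 619 and 699 CPM in the pre-IP and 965, 927, 848 and 632 CPM in the IP of animals B, C, L and M. EYFP animals H, I and K had 471.5, 562.5 and 735 CPM in pre-IP and 790, 740 and 718 CPM in IP. IP was above pre-IP in 5 of 7 animals, and animals K and M were the others. The log2 fold change was 0.41 (SE 0.13, edgeR adjusted p 0.0277).

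Tubb2a, a major neuronal beta isotype, had 855, 856, 678 and 787 CPM in pre-IP and 1054, 1160, 1058 and 730 CPM in IP in animals B, C, L and M. In animals H, I and K the values were 576, 683 and 872 CPM in pre-IP and 1086, 1026 and 867 CPM in IP. Its log2 fold change of 0.44 was the largest of the 10 isotypes (SE 0.13, edgeR adjusted p 0.0176), with animals K and M again not higher in IP. Tubb2b, its near copy and the beta isotype best known from neuronal migration, was far less abundant. It had 76.9, 76.8, 76.9 and 82.5 CPM in pre-IP and 114.5, 119, 107 and 83.7 CPM in IP in animals B, C, L and M. In animals H, I and K it had 65.8, 74.1 and 83.6 CPM in pre-IP and 102, 72.3 and 84.7 CPM in IP. Among the EYFP animals, IP exceeded pre-IP in H, was nearly level in K (a log2 ratio of 0.02) and was lower in I. Its log2 fold change over all libraries was 0.39 (SE 0.12, edgeR adjusted p 0.0246).

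Tubb4b, a broadly expressed beta isotype, had 530, 506, 406 and 516 CPM in pre-IP and 561, 649, 564.5 and 480 CPM in IP in animals B, C, L and M. In animals H, I and K it had 358, 391.5 and 571 CPM in pre-IP and 659, 612 and 574 CPM in IP. Its largest ratios were those of animals H and I, and its log2 fold change was 0.37 (SE 0.13, edgeR adjusted p 0.0380). Tuba1a, the main alpha isotype of neurons, had 1333, 1260, 1046 and 1204 CPM in pre-IP and 1413, 1526, 1408 and 1193 CPM in IP in animals B, C, L and M. In animals H, I and K it had 1038, 1045 and 1335 CPM in pre-IP and 1630, 1352 and 1272 CPM in IP. It was higher in IP in 5 of 7 animals and passed narrowly, at 0.29 on the log2 scale with an SE of 0.11 and an edgeR adjusted p of 0.0480.

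The other 4 isotypes did not pass. Tuba1b, an alpha isotype of nearly all cells, ranged from 935 to 1093 CPM in pre-IP and from 792 to 1185 CPM in IP (log2 fold change 0.08, edgeR adjusted p 0.528). Tuba4a, an alpha isotype whose last codon is glutamate, ranged from 654 to 862 CPM in pre-IP and from 571 to 891 CPM in IP (-0.01, edgeR adjusted p 0.939). Tubb6, scarce in brain, ranged from 5.27 to 9.43 CPM in pre-IP and from 5.49 to 9.14 CPM in IP (-0.13, edgeR adjusted p 0.592). Tubb4a was at -0.11 with an SE of 0.13 and an edgeR adjusted p of 0.560, and its treatments are set apart below.

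The enrichment was uneven between animals. Per animal, the log2 ratio of IP to pre-IP CPM of Tubb5 was 0.58, 0.48, 0.38 and -0.06 in B, C, L and M and 0.80, 0.33 and 0.04 in H, I and K. That of Tubb3 was 0.57, 0.53, 0.45 and -0.15 in the tau animals and 0.74, 0.40 and -0.03 in the EYFP animals. Animal H had the highest ratio of the 7 for Tuba1a, Tuba1b, Tuba4a, Tubb2a, Tubb3, Tubb4a, Tubb4b and Tubb5, while animals K and M stayed between -0.15 and 0.04 for the 6 isotypes called. M also had the lowest noradrenergic ratio of the tau animals (1.28), and K the lowest of the EYFP animals (0.42), but H, with a noradrenergic ratio of 0.49, was far below B, C and L (3.08 to 4.05) in that measure and above them in most isotypes. The sum of 9 general neuronal markers, of which Snap25 made up 30.6 to 49.3% in a library, had log2 ratios of 0.10 to 0.42 in all 7 animals. Single markers differed in direction: 2 were called higher in IP (Uchl1 at 0.83 and Stmn2 at 0.60, edgeR adjusted p 0.00711 and 0.0159) and 1 lower (Rbfox3 at -0.46, edgeR adjusted p 0.0129). The part of these in the isotype ratios was not tested.

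**Figure D2:**
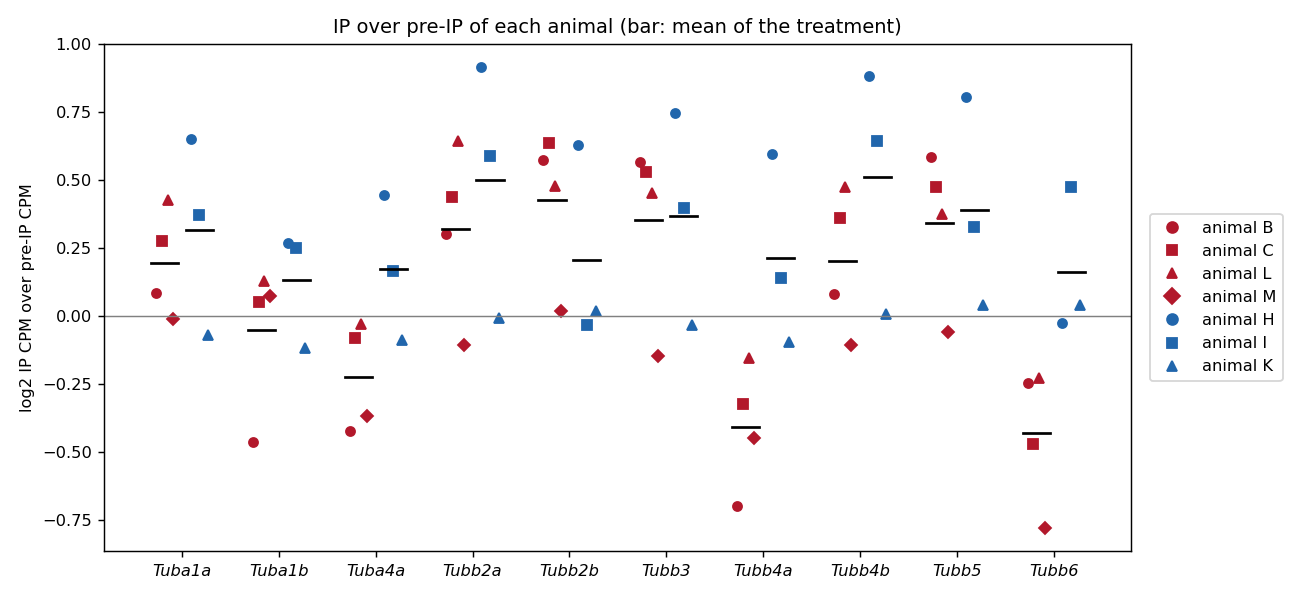
log2 ratio of IP CPM to pre-IP CPM (y axis) of each isotype (x axis) in each animal, tau animals in red and EYFP animals in blue; bars are treatment means. For Tubb4a the 4 tau animals lie at -0.70 to -0.16 and the EYFP animals at -0.10 to 0.60; animals K and M lie near 0 for the 6 isotypes called.

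The count of 6 called isotypes rested on single animals. It was 0 without animal C, 1 without H, 1 without L (Tubb5 in both), 2 without I (Tubb2b and Tubb5) and 3 without B (Tubb2a, Tubb4b and Tubb5), and 6 without K or without M. The log2 fold changes stayed above 0 for all 6 when any animal was left out, at 0.22 to 0.55. Over all genes, the fits with an animal left out called 2218 to 3054 higher of 18770 to 18926 tested. Within the 4 tau animals alone 1 isotype was called (Tubb2b), where 1970 of 18949 genes were called higher and 1946 lower. Within the 3 EYFP animals alone 0 isotypes were called, with 3 at an unadjusted p under 0.05 by edgeR. Of 19105 genes there, 757 were called higher, 461 lower, and 4325 had such an unadjusted p. A model that blocked by animal called 5 isotypes, against 2998 of 18792 genes higher, and Tuba1a had an edgeR adjusted p of 0.0534. Libraries carry numbers up to 11 (animals B, C, H and I) or from 17 on (K, L and M): the mean ratio of Tubb5 was 0.55 in the first range and 0.12 in the second, and that of Tubb3 was 0.56 and 0.09.

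Isotypes assemble into the same polymers, so their mixture was also described within each library. Among beta isotypes, Tubb4a made up 46.5% ± 1.4 of the summed CPM per kilobase in pre-IP and 38.1% ± 6.3 in IP (SD, n = 7 each). Its share was lower in IP in 7 of 7 animals, with differences of -16.87 to -1.54 percentage points. In tau animals B, C, L and M it went from 44.3, 46.1, 46.9 and 48.9% in pre-IP to 27.4, 33.3, 35.5 and 43.1% in IP. In EYFP animals H, I and K it went from 46.1, 46.4 and 46.6% to 41.9, 40.2 and 45.1%. The pre-IP shares of all 7 animals were thus close to each other, and the IP shares of tau animals spread over a wide range that overlapped the EYFP animals through animal M alone.

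Shares are of a fixed total, so those of other beta isotypes move against that of Tubb4a. Tubb2a was 21.2% ± 1.1 of beta tubulin in pre-IP and 24.9% ± 2.6 in IP, higher in IP in 7 of 7 animals. Tubb3 was 15.1% ± 0.44 in pre-IP and 17.4% ± 2.6 in IP, also higher in 7 of 7, with 22.3, 18.8, 18.3 and 16.2% in the IP of B, C, L and M and at most 15.7% in that of H, I and K. For Tubb3 the tau and EYFP IP shares did not overlap, and the EYFP IP shares lay within the pre-IP range of 14.4 to 15.9%. Tubb4b went from 10.1% ± 0.59 to 11.3% ± 0.33, higher in 7 of 7 animals, and Tubb5 from 5.60% ± 0.47 to 6.47% ± 0.95. Tubb2b was 1.94% ± 0.17 in tau IP (SD, n = 4) against 1.44% ± 0.17 in EYFP IP (SD, n = 3), and 1.47 and 1.58% in the respective pre-IP groups. Its share was higher in IP in all 4 tau animals, and the tau and EYFP IP shares did not overlap (1.75 to 2.15% and 1.25 to 1.58%). In CPM, tau IP and EYFP IP overlapped for Tubb3 (632 to 965 and 718 to 790) and for Tubb2b (83.7 to 119 and 72.3 to 102). Shares have no background over all genes. In CPM, these groups did not overlap for 15.6% of all genes tested.

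Among alpha isotypes, Tuba1a was 47.0% ± 1.9 of the summed level in pre-IP and 51.2% ± 3.7 in IP (SD, n = 7 each), higher in IP in 7 of 7 animals. Tuba1b was 38.4% ± 2.0 and 36.0% ± 3.4. Tuba4a was 14.5% ± 0.83 in pre-IP and 12.9% ± 1.2 in IP, lower in 7 of 7, although in animal K the difference was -0.01 points. The tau IP shares of Tuba4a (11.3 to 12.6%) and its EYFP IP shares (12.8 to 15.1%) did not overlap. The alpha and beta shares assume that length-scaled counts of similar genes can be compared. For Tuba1a, Tuba1b, Tuba4a, Tubb2a, Tubb2b and Tubb4b this is uncertain, and the shares of the other isotypes depend on it.

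**Figure D3:**
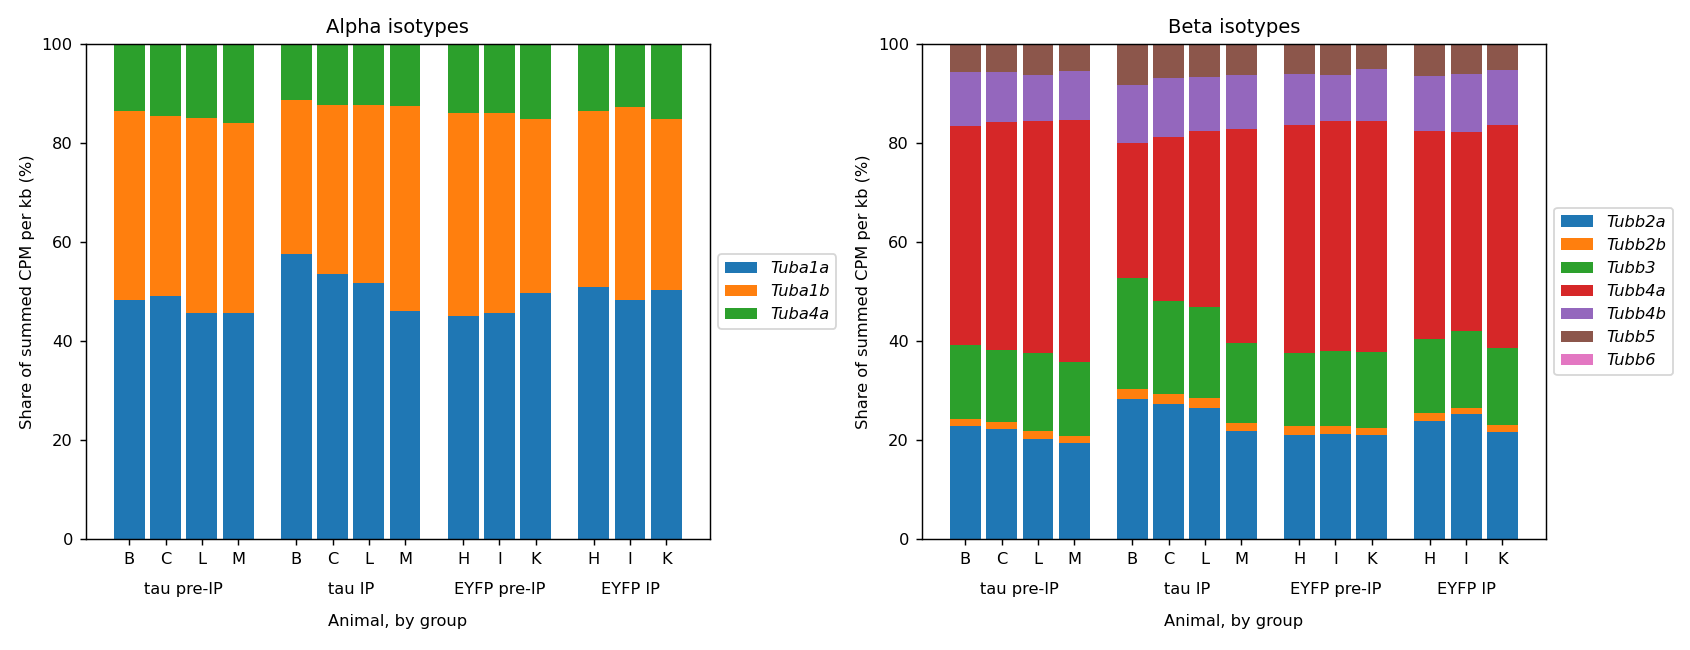
Share of each isotype in the summed CPM per kilobase of the alpha (left) or beta (right) isotypes, y axis in percent, for every animal on the x axis by group. Tubb4a is 44.3 to 48.9% of beta tubulin in the 7 pre-IP libraries and 27.4% in the tau IP library of animal B.

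The second comparison, named in the study's design, set tau IP against EYFP IP. No isotype was called, and neither was any gene: 0.0% of 19472 genes passed an adjusted p of 0.05 by edgeR, and 12% had an unadjusted p under 0.05. By the Wald test of DESeq2, 312 genes were higher and 30 lower, with 0 isotypes among them. The isotypes' log2 fold changes ran from -0.33 to 0.41, with a median of 0.03 against -0.08 over all genes. Library totals in place of TMM scaling would put every gene's difference 0.12 lower, so directions of isotypes near 0 depend on it: Tuba1a, at 0.08 by edgeR, was -0.03 on library totals, and Tubb2a was 0.13 and -0.004.

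Tubb4a was the isotype with the smallest p. It had 1418, 1959, 1960 and 2003 CPM in the IP of tau animals B, C, L and M, and 2633, 2271 and 2497 CPM in that of EYFP animals H, I and K. All 4 tau values were below all 3 EYFP values, on library totals and on TMM scaling. The RNA concentration of these IP samples was 0.1, 0.8, 0.2 and 0.5 ng per microlitre in B, C, L and M and 2.8, 1.6 and 0.7 in H, I and K, so tau samples held less RNA apart from an overlap of C with K. B, the lowest in Tubb4a, also had the least RNA and the smallest TMM factor of the 14 libraries (0.85). The part of RNA yield in the difference was not tested. The log2 fold change was -0.33 (SE 0.14), with an unadjusted p of 0.0363 by edgeR that gave 0.387 after adjustment over all genes. On library totals Tuba4a did not overlap either, with 571, 720, 687 and 669 CPM in tau IP and 891, 737.5 and 783 CPM in EYFP IP (log2 fold change -0.18, SE 0.13, edgeR adjusted p 0.611). On TMM-scaled CPM, an alternative chosen after seeing the data, its groups overlapped, since C was at 722.5 and EYFP animal I at 697. The tau and EYFP groups did not overlap for 15.6% of all genes tested on library totals, against 2 of the 10 isotypes, and for 14.6% on TMM scaling, against 1 isotype, Tubb4a. Tuba4a and Tubb4a stayed below 0 with each animal left out, at -0.25 to -0.13 and -0.40 to -0.26.

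Tubb2b and Tubb3 pointed the other way without passing. Tubb2b had 114.5, 119, 107 and 83.7 CPM in tau IP and 102, 72.3 and 84.7 CPM in EYFP IP, or 0.41 on the log2 scale with an SE of 0.19 and an edgeR adjusted p of 0.428. For Tubb3 the fold change was 0.29 (SE 0.18, edgeR adjusted p 0.556), and for Tubb5 0.24 (SE 0.19, edgeR adjusted p 0.650). Animal M was the lowest of the 4 tau animals for both Tubb3 and Tubb5. With each animal left out, Tubb3 ranged from 0.16 (without B) to 0.41 (without M), Tubb5 from 0.11 (without B) to 0.36 (without M), and 0.12 without K, and Tubb2b from 0.29 (without I) to 0.52 (without M). None of these passed. Within the library range up to 11, the tau minus EYFP difference of Tubb4a was -0.55 on the log2 CPM scale (2 against 2 animals), and from 17 on it was -0.33 (2 against 1). For Tubb2b the differences were 0.45 and 0.16.

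Summed levels of some cell type markers also differed between tau and EYFP animals. The summed level of 9 oligodendrocyte markers was 3350 to 8975 CPM in tau IP and 7483 to 10590 CPM in EYFP IP, and none was at 0 in all libraries. Mbp, which encodes a protein of the myelin sheath, made up 52.3 to 65.0% of that sum. The log2 IP to pre-IP ratio of the sum was -1.68, -0.79, -0.80 and -0.44 in B, C, L and M and -0.29, -0.23 and -0.18 in H, I and K. The ratio of Tubb4a in the same animals was -0.70, -0.32, -0.16 and -0.45, then 0.60, 0.14 and -0.10. Animal B was the lowest in both. The 9 oligodendrocyte markers did not all move alike in IP against pre-IP: Mbp (-0.68, edgeR adjusted p 0.0175) and Mobp (-0.46, edgeR adjusted p 0.0343) were called lower, and Ermn (0.66, edgeR adjusted p 0.0110) and Cldn11 (0.38, edgeR adjusted p 0.0444) higher. For tau against EYFP in IP, 8 of the 9 were below 0, at a median of -0.41, and 0 were called by edgeR. An unadjusted p under 0.05 was found for 1 of them, against 12% of all genes. The summed level of 8 astrocyte markers, of which Aldoc made up 69.1 to 80.0%, had log2 IP to pre-IP ratios of -1.01 to -0.01 in tau and 0.01 to 0.57 in EYFP animals. In IP against pre-IP, Slc1a2 of this list was called higher (0.98, edgeR adjusted p 0.000177) and Gja1 lower (-0.47, edgeR adjusted p 0.0310). For tau against EYFP in IP all 8 were below 0, at a median of -0.51, and 0 were called by edgeR. An unadjusted p under 0.05 was found for 3 of them, again against 12% of all genes. The summed level of 8 microglial markers had log2 ratios of -1.21 to -0.14 in tau and -0.02 to 0.18 in EYFP animals. In IP against pre-IP, 3 of the 8 were called lower and 0 higher. The noradrenergic markers, at 1070 to 7168 CPM in tau IP and 564 to 642 CPM in EYFP IP, went in the opposite direction to these glial sums. The sum of 6 endothelial markers overlapped between treatments, with log2 ratios of -0.86 to 0.22 in tau and -0.04 to 0.18 in EYFP animals. That of the 9 neuronal markers overlapped as well, at 0.10 to 0.42 and 0.21 to 0.35. The part of the cell type markers in the Tubb4a difference was not tested.

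The third comparison made the same contrast in the homogenate. All 10 isotypes had higher means in tau pre-IP than in EYFP pre-IP, by 0.07 to 0.27 on the log2 scale, and none passed (edgeR adjusted p 0.9998 for each). Of 19197 genes, 0.0% passed and 2.84% had an unadjusted p under 0.05, against 0 of the 10 isotypes. DESeq2 called 0 genes there. Tubb5, with 420 to 439 CPM in tau and 338 to 414.5 CPM in EYFP pre-IP, was the isotype whose groups did not overlap on library totals, which held for 3.12% of all genes. On TMM-scaled CPM its groups overlapped, with 424 CPM in B and 433 in K, and 0 isotypes were apart against 3.13% of all genes. Its log2 fold change was 0.17 (SE 0.13). Animal H had the lowest pre-IP values of the 7 for Tuba1a, Tuba4a, Tubb2a, Tubb2b, Tubb3, Tubb4a, Tubb4b and Tubb5, and without it the log2 differences of 9 isotypes were between -0.04 and 0.04 and that of Tubb6 was 0.25. Without EYFP animal K the 10 differences were 0.12 to 0.50, and Tubb2a, Tubb3, Tubb4a, Tubb4b and Tubb6 had unadjusted p of 0.0159 to 0.0319 by edgeR, with an adjusted p of 0.9945 for each. The 2.84% above comes from the fit on all animals and is not the background of these unadjusted p. The low pre-IP values of H also enter its high IP to pre-IP ratios. Within the first library range all 10 differences were above 0, and within the second, with 1 EYFP animal, 7 were below 0.

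The last comparison asked whether the IP to pre-IP ratio differed between treatments. No isotype and 0.0% of 20495 genes passed, and 5.97% of genes had an unadjusted p under 0.05, against 1 isotype, Tubb4a. DESeq2 gave 47 genes with a higher and 5 with a lower ratio in tau animals, 0 of them isotypes. The interaction of Tubb4a was -0.50 on the log2 scale (SE 0.23, unadjusted p 0.0494 by edgeR, adjusted p 0.820). It was -0.30 without EYFP animal H (unadjusted p 0.220 by edgeR) and -0.73 without EYFP animal K (unadjusted p 0.00471 by edgeR, adjusted p 0.7499), the ends of its range with an animal left out. Among tau animals alone its log2 fold change of IP over pre-IP was -0.35 (SE 0.13, edgeR adjusted p 0.0764), and among EYFP animals 0.18 (SE 0.20, edgeR adjusted p 0.655). Tubb6 (-0.45, SE 0.32) and Tuba4a (-0.30, SE 0.20) had interactions of the same sign, and Tubb2b (0.34, SE 0.24) the opposite, with edgeR adjusted p of 0.847, 0.844 and 0.856. With an animal left out, Tuba4a ranged from -0.50 (without K) to -0.14 (without H), Tubb2b from 0.17 (without K) to 0.56 (without H), and 0.19 without I and 0.20 without B, and Tubb6 from -0.62 (without B) to -0.35 (without M). The interactions of Tuba1a, Tuba1b, Tubb2a, Tubb3, Tubb4b and Tubb5 lay between -0.17 and 0.14.

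**Figure D4:**
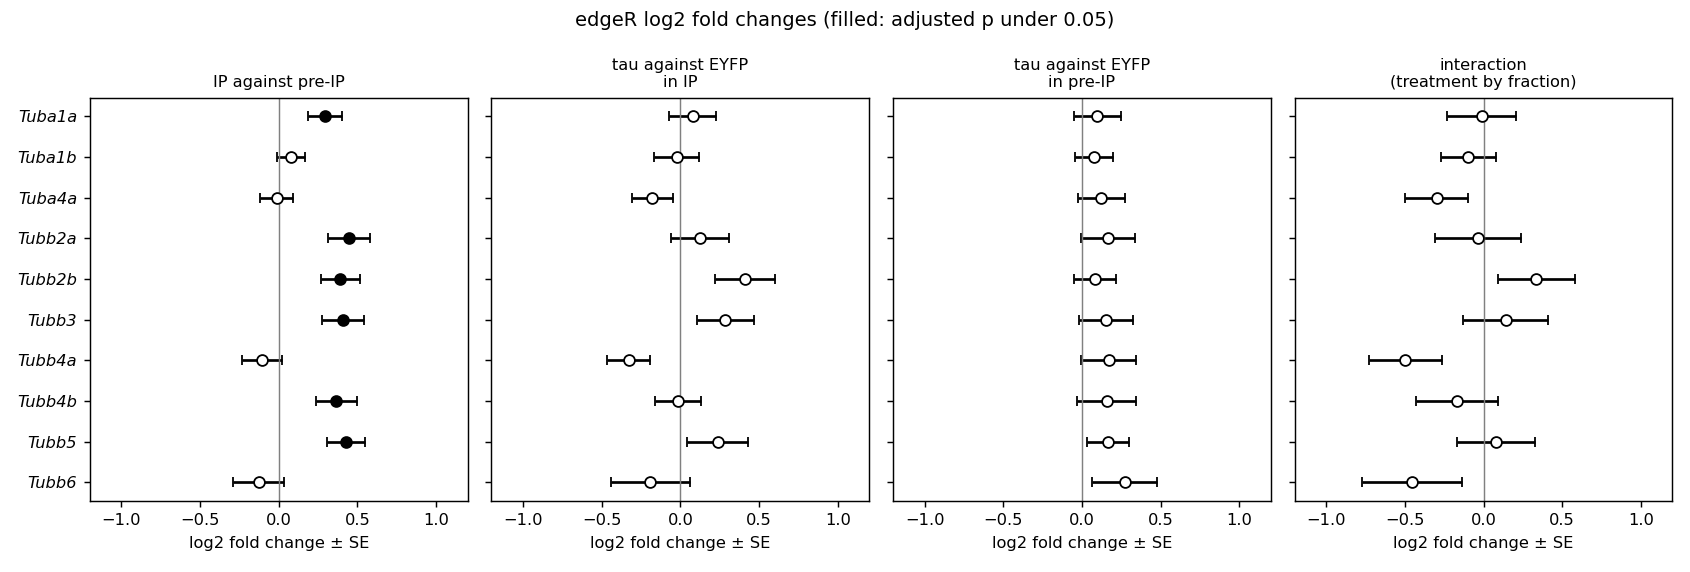
log2 fold change ± SE (x axis) of the 10 isotypes (y axis) in the 4 comparisons by edgeR, with filled points for an adjusted p under 0.05. The 6 filled points are all in IP against pre-IP; Tubb4a is at -0.33 for tau against EYFP in IP and at -0.50 in the interaction.

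Genes that fold, modify and nucleate tubulin were counted in IP against pre-IP for comparison with the isotypes. The background for each count is the share of all genes called, 16.3% higher and 14.7% lower. Of 14 prefoldin and CCT chaperonin subunits, which fold new tubulin, 13 were higher in IP and 0 lower, with a median log2 fold change of 0.49. The largest were the prefoldin subunits Vbp1 (1.11, SE 0.20, edgeR adjusted p 0.000873) and Pfdn4 (1.10, SE 0.28, edgeR adjusted p 0.00695) and the chaperonin subunit Cct8 (0.86, SE 0.13, edgeR adjusted p 0.000178). Cct7, at 0.23, was the member that did not pass. Of 7 tubulin cofactors and their relatives, which assemble and take apart the dimer, 4 were higher, Tbca (0.88), Tbcb (0.43), Tbcc (0.35) and Arl2 (0.35), and 1 lower, Tbcd (-0.53).

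Of 29 tubulin modifying enzymes listed, 25 were tested, with a median log2 fold change of -0.06. Of these 3 were higher, a smaller share than the 16.3% of all genes: the polyglutamylase Ttll7 (1.05, SE 0.15, edgeR adjusted p 0.000171), Svbp (0.37), the partner of the vasohibins that remove the alpha tyrosine, and Tpgs1 (0.31), a polyglutamylase subunit. A further 8 were lower, against 14.7% of all genes, the largest changes being those of the polyglutamylase Ttll5 (-0.80, SE 0.09, edgeR adjusted p 3.70e-05), the glycylase Ttll3 (-0.77) and the transglutaminase Tgm2 (-0.69). Ttc5, the sensor of the first tubulin residues shown above, was lower in IP, at -0.32 on the log2 scale, with 86.4 ± 5.29 CPM in tau pre-IP and 65.3 ± 9.57 CPM in tau IP (SD, n = 4 each) and an edgeR adjusted p of 0.00701. In EYFP animals it had 86.3 ± 9.47 CPM in pre-IP and 69.7 ± 6.20 CPM in IP (SD, n = 3 each).

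Of 8 genes of the gamma-tubulin ring complex, the template on which microtubules start, 1 was higher, Mzt2 (0.30), and 4 were lower, the largest changes being those of Tubgcp6 (-1.47), Tubgcp3 (-0.62) and Tubgcp2 (-0.43). Of 9 genes of the severing enzymes that cut microtubules, Spast was higher (0.44) and Katnal1 lower (-0.38), in each direction a smaller share than that of all genes. Of the 10 other tubulin genes listed, 6 were tested and 0 called by edgeR, with 2 at an unadjusted p under 0.05, against 7823 of all 18792 genes. None of the genes of these lists was called for tau against EYFP in either fraction or in the interaction. For Tbca, a cofactor that binds the beta subunit, the tau against EYFP difference in IP was 1.04 (SE 0.32, edgeR adjusted p 0.318), with 144 to 326 CPM in tau IP and 90.2 to 126 CPM in EYFP IP. Pfdn4 had a larger one, 1.24 (SE 0.41, edgeR adjusted p 0.319), with 37.1 to 118.5 CPM in tau IP and 27.1 to 32.5 CPM in EYFP IP. On library totals these groups did not overlap for 15.6% of all genes tested.

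**Figure D5:**
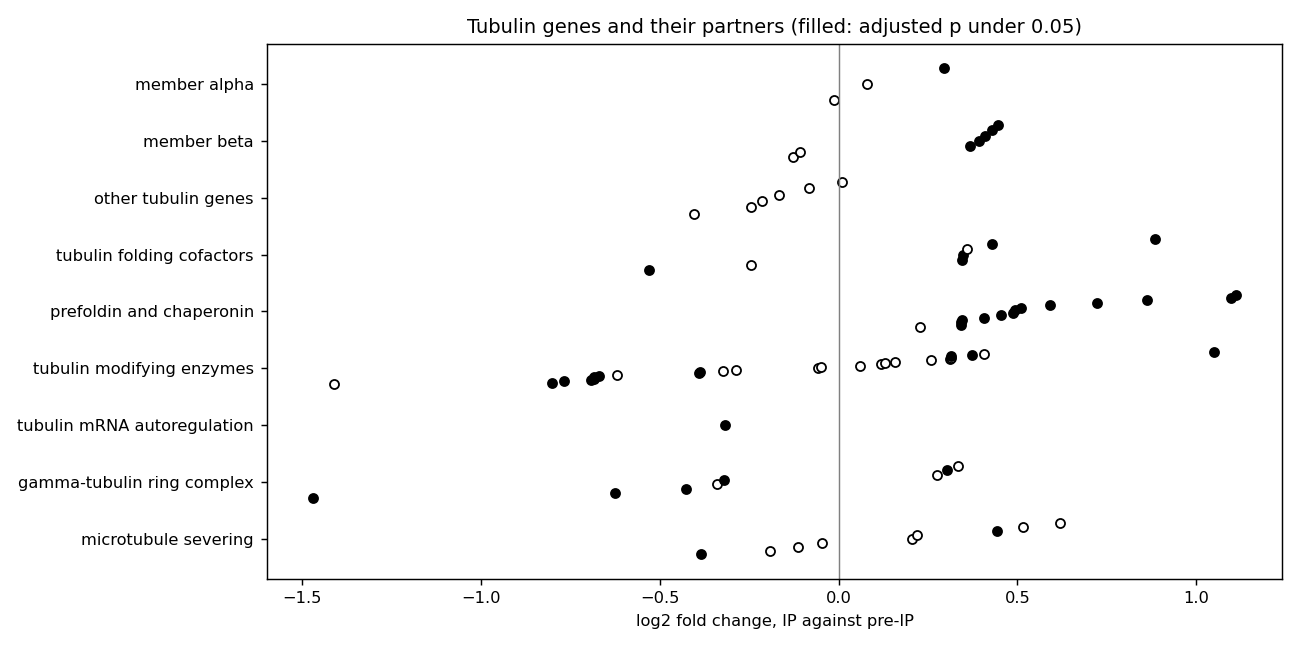
log2 fold change of IP against pre-IP (x axis) for the isotypes and the lists of related genes (y axis), each point a gene and filled where the edgeR adjusted p was under 0.05. In the prefoldin and chaperonin list 13 of 14 points are filled and above 0; modifying enzymes lie on both sides.

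For each isotype the gene with the most similar pattern over the 14 libraries was sought among 20485 genes other than the 10 isotypes, as the smallest root-mean-square difference of mean-centred log2 CPM. It was Impdh2 for Tuba1a (0.08), Dxo for Tuba1b (0.09), Atp5f1b for Tuba4a (0.07), Hsp90ab1 for Tubb2a (0.12), Arl2 for Tubb2b (0.10) and Ass1 for Tubb3 (0.09). For Tubb4a it was Acad9 (0.09), for Tubb4b Aldoa (0.08), for Tubb5 Gnb2 (0.10) and for Tubb6 Wdr1 (0.17). Among the isotypes themselves, Tubb4a and Tuba4a were nearest to each other (0.11), as were Tuba1a and Tubb4b (0.10) and Tubb3 and Tubb5 (0.10). Tubb2a was nearest to Tubb4b (0.10), closer than to Hsp90ab1, and Tubb2b to Tubb3 (0.12).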

How the data were processed

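Expression was measured in 14 RNA sequencing libraries of polyadenylated RNA, made with SMART-Seq v4 and Nextera XT kits, per the labels' protocols. The deposited table gives whole-number counts per gene and library. FastQC, Trim Galore, STAR and featureCounts and the builds GRCm38 and mm10 are named in the submitters' processing notes. The deposited sample sheet gives raw read counts, RNA integrity scores, RNA concentrations and the GC percent of reads, per the file headers. The count table's header has 2 stray empty cells, so columns were read by position, and construct counts equalled those of the sheet in 14 of 14 libraries. Symbols came from the deposited gene table and, for 3755 entries, from GENCODE M21, whose transcripts also gave the sequences. For tau against EYFP within a fraction, p-values measure the spread between animals. In IP against pre-IP and in the interaction, they measure the spread between libraries. The main fits there had no term for the animal and took its IP and pre-IP libraries as independent.

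CPM used library totals, and per-animal log2 ratios a prior count of 0.5. Length was that of merged exons. Tests used edgeR 4.0.16 in R 4.3.3 (filterByExpr, TMM scaling, quasi-likelihood F test, Benjamini-Hochberg over all genes, threshold 0.05). The SE was the log2 fold change over the square root of F. IP against pre-IP had treatment as an additive term, and tau against EYFP was fitted within each fraction. The fits were run on simulated counts with planted changes larger than those of the isotypes and with libraries drawn independently. That check does not cover changes as small as those of the isotypes, or the pairing within animals. Other settings were DESeq2 1.42.0, its size factors, no filter, each animal left out, library-number range as covariate, the animal as a block and, added after seeing the data, TMM-scaled CPM for the overlap of groups. IP and pre-IP of a letter come from the same animal, and their deviations from group means correlated at 0.15 to 0.36 (mean 0.22).

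All 10 isotypes were named in each comparison. From each other list, up to 3 called genes per direction with the largest log2 fold change of IP against pre-IP were named, and for each isotype the gene of nearest pattern. Arl2, Tbcc, Cct7, the cell type markers named singly and the tau against EYFP values of Tbca and Pfdn4 were added after their values were seen. An oligodendrocyte marker and some coding ends are not reported here. The isotypes and lists were chosen with earlier results of these data known.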

Additional observations from a re-analysis of the deposited data

Results flagged for a closer look

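In groups of 4 tau libraries, 50 sets of isotype values were examined for a sample far from the other 3 by Dixon's ratio of gap to range, and 5 stood out, where chance marks about 5% of sets. The IP library of animal B had 1418 CPM of Tubb4a, against 1959 to 2003 CPM in the other tau animals. Animal B also had the only negative log2 IP to pre-IP ratio of Tuba1b among tau animals, -0.46. Animal M had a Tubb3 ratio of -0.15, against 0.45 to 0.57 in B, C and L. In tau pre-IP, Tubb2b was 82.5 CPM in M and 76.8 to 76.9 CPM in the others, and the Tubb2b share of beta tubulin was 1.60% in L against 1.41 to 1.44%.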

How the results depend on the processing

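In IP against pre-IP, 6 isotypes were called, 5 with DESeq2 size factors, 6 with DESeq2's Wald test, 4 without a filter on low counts, 6 with library range as covariate, 5 with the animal as a block, 1 in tau animals alone, 0 in EYFP animals alone, and 0 to 6 with an animal left out. Over all genes, these settings called from 757 (EYFP animals alone) to 3454 (DESeq2's Wald test) higher. In the other comparisons 0 isotypes were called in every setting run, the replicate block included (0 in the interaction). Directions turned for isotypes that were not called. In IP against pre-IP, EYFP animals alone gave 0.16 for Tuba4a, 0.18 for Tubb4a and 0.13 for Tubb6, and leaving out an animal gave -0.099 to 0.058 for Tuba4a. For tau against EYFP in IP, DESeq2 size factors and the Wald test gave 0.0053 for Tuba1b and 0.018 for Tubb4b, and the range covariate 0.013 for Tubb4b; leaving out an animal gave -0.14 to 0.032 for Tuba1b and -0.069 to 0.067 for Tubb4b. In pre-IP these ranges were -0.0048 to 0.27 for Tuba1a, -0.035 to 0.22 for Tubb2b, -0.019 to 0.39 for Tubb3 and -0.0065 to 0.44 for Tubb4b. In the interaction they were -0.28 to 0.18 for Tuba1a, -0.36 to 0.18 for Tubb2a, -0.14 to 0.33 for Tubb3, -0.51 to 0.027 for Tubb4b and -0.15 to 0.30 for Tubb5. The cause was not tested. Shares of isotypes moved with the length used: Tubb4a in tau pre-IP was 46.6% by merged exons, 44.5% by the longest transcript and 49.6% without a length term, and 34.8, 33.1 and 37.6% in tau IP. Over all genes, tau against EYFP in IP called 0 by edgeR and 126 higher and 2 lower without animal M, where 0 isotypes were called. Unfiltered counts called 108 higher and 5 lower.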
